A study of Homo sapiens with 8 samples.

Results

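The genes described here are 35 heat shock and endoplasmic reticulum (ER) chaperones and their regulators, measured in HEK293, a cell line from human embryonic kidney. They were chosen by gene symbol, with earlier results of these data known. Shares of members set beside those of all genes therefore describe this list and do not test it. All 35 were found among the 58440 genes of the count table, and all 35 were among the 17144 genes that passed the filter on low counts. Of these, 17 act in the cytosol, the nucleus or the mitochondria and are called the heat shock genes below. The other 18 belong to the ER.

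Chaperones bind unfolded proteins and help them reach or regain their shape. In the cytosol, misfolded protein frees the transcription factor HSF1, which binds heat shock elements and raises the transcription of HSPA1A, HSPA1B, DNAJB1, HSPH1 and their relatives. In the ER, unfolded protein draws the chaperone HSPA5 (BiP) off the stress sensors, and ATF6 and spliced XBP1 then raise ER chaperones, disulfide isomerases and the machinery that returns misfolded proteins to the cytosol for breakdown.

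PolyA RNA was sequenced with strand kept, and the labels describe 4 groups of 2 samples. They are cells that stably overexpress HTR1E, a receptor for serotonin that signals through inhibitory G proteins, with serotonin and without ligand, and control HEK293 cells with serotonin and without ligand. The treatment protocol gives 3 h of serum starvation and 1 µM serotonin for 1 h. The labels name neither the promoter that drives HTR1E nor the number of clones, and they do not say whether the samples of a group were separate cultures, so p-values measure the spread between libraries, which may be technical.

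The count columns carry a treatment word, Serotonin or Control (no ligand), a letter A or B, and in 4 of the names a trailing R. The treatment word was matched to the treatment label. The labels tie neither letter to a cell line and do not explain the R, so the sets are called the A columns and the B columns, with 4 columns each. Within each letter and treatment, column 1 has no trailing R and column 2 has it, and pairs of values are given in that order. HTR1E had 1353 to 1836 read pairs in the A columns (175 to 225 CPM) and 0 to 3 in the B columns (0 to 0.501 CPM). No column was given a cell line from these counts, and each comparison of A with B below is one between the letters. CPM are counts per 1000000 counted pairs of a library, scaled by edgeR's trimmed mean of M-values (TMM).

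Libraries held 2604885 to 9072278 counted read pairs, and 2 of the B columns stood apart. B no-ligand column 1 was the smallest, with 54.37% of its pairs on mitochondrial genes, and B serotonin column 2 had 36.3%, against 17.92% to 24.61% in the other 6. Over the genes tested, the log2 deviations from each gene's median over the columns had a standard deviation of 1.02 in B no-ligand column 1. This spread over genes was 0.81 in B serotonin column 2, against 0.33 to 0.49 in the other 6. The 8 HEK293 markers that were looked at were all detected. Of 8 markers of other cells, PTPRC, which marks leukocytes, was at 0 in all columns, and COL1A1, a fibroblast collagen, was the only one to pass the filter on low counts (26.04 to 31.5 CPM in A and 12.1 to 43.8 CPM in B).

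Promoter sequences are shown for HSPA1A and HSPA1B, whose levels behaved differently between the letters, for HSPB1, another gene that differed, and for HSPA5 as the standard ER target. They come from RefSeq on GRCh38.p14, begin 250 bases before the RefSeq start, and end there or at the gene start of the annotation used for counting, whichever is further upstream. Capitals mark a heat shock element (GAANNTTC) in the first 3 and an ER stress element in HSPA5. HSPA1A lies at chr6:31815293-31815463 (plus strand), HSPA1B at chr6:31827488-31827734 (plus), HSPB1 at chr7:76302423-76302543 (plus) and HSPA5 at chr9:125241344-125241593 (minus).
HSPA1A: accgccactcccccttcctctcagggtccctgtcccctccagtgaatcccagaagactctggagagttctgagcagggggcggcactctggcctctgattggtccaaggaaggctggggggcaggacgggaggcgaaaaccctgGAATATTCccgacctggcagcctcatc
HSPA1B: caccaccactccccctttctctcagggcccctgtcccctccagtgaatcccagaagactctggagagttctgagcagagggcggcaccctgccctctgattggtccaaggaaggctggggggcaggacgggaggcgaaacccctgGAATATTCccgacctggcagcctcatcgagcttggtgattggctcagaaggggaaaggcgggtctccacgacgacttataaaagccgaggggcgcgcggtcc
HSPB1: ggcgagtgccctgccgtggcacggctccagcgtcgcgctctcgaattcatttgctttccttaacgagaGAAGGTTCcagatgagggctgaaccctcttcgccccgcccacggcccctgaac
HSPA5: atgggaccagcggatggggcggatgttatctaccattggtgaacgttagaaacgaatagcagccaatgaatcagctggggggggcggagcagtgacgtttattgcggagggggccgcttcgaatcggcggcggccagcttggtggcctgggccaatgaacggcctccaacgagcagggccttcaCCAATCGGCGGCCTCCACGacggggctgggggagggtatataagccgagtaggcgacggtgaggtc

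Both motifs were searched on both strands in the 250 bases before the RefSeq start, which was available for 33 of the 35 genes (not for PDIA3 and HSF1). Only the first listed start of each member was searched, so a motif at another start would be missed. The heat shock element GAANNTTC was present for 6 of 16 heat shock genes (37.5%) and 0 of 17 ER genes, against 5.78% of 35114 promoters. Its holders were HSPA1A, HSPA1B, HSPA8, HSPB1, DNAJA1 and DNAJB6. The ER stress element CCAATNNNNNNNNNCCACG was present for 6 of 17 ER genes (35.3%) and 0 of 16 heat shock genes, against 0.074% of all promoters. These were HSPA5, HSP90B1, CALR, CANX, CRELD2 and XBP1. The motifs do not overlap each other, and a match is a run of letters, not a measured binding site.

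Per kilobase of merged exon, mean levels were highest in both letters for CALR, a lectin chaperone of the ER (434 CPM per kb in the A columns and 247.5 in the B columns). HSP90AB1, a cytosolic HSP90, came next (246.7 in A and 226.5 in B). HSPA1A, the stress-inducible HSP70, ranked 22 of the 35 in A (13.5 CPM per kb) and 3 in B (196), above HSP90B1, the HSP90 of the ER (191 in A and 173 in B). The rank of HSPA1A rests on the split of counts with HSPA1B, which is uncertain, as given below. The lowest in both letters were DNAJB4, a J-domain cochaperone (2.24 CPM per kb in A and 2.32 in B), and HSPA4L, an HSP110-type exchange factor (2.35 in A and 4.33 in B).

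**Figure D1:**
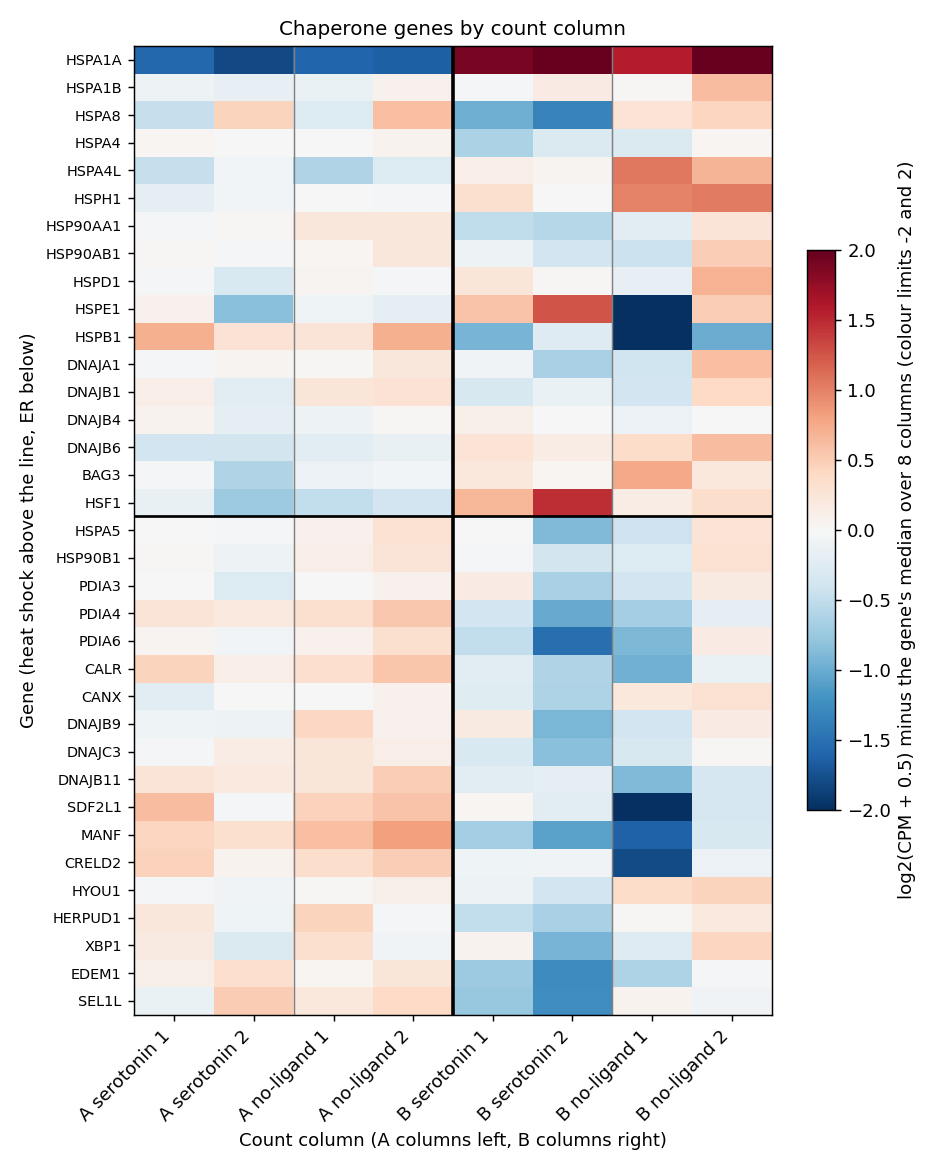
Level of each of the 35 genes in each column, as log2(CPM + 0.5) minus the gene's median over the 8 columns; colours stop at -2 and 2. HSPA1A is low in the 4 A columns and high in the 4 B columns, and most ER genes are below their median (blue) in B serotonin column 2 and B no-ligand column 1.

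HSPA1A, the stress-inducible HSP70, was the heat shock gene that separated the letters most. It had 35.4 and 30.1 CPM in the A serotonin columns and 34.9 and 33.9 CPM in the A no-ligand columns, against 398 and 736 CPM in the B serotonin columns and 317 and 499 CPM in the B no-ligand columns. All 4 A columns lay far below all 4 B columns. With edgeR's quasi-likelihood test and Benjamini-Hochberg adjustment over 17144 genes, A was 17.3-fold lower than B after serotonin (log2 fold change -4.11 ± 0.42 SE, adjusted p = 0.000649) and 11.9-fold lower without ligand (-3.57 ± 0.41, adjusted p = 0.00163). The call held when any 1 column was left out, at -4.52 to -3.61 after serotonin and -3.90 to -3.16 without ligand. It was lost without ligand when only the 4 columns compared were fitted (-3.59, adjusted p = 0.0512).

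HSPA1B, a neighbour that encodes the same HSP70 protein, did not pass the test between the letters. It had 222 and 212 CPM in the A serotonin columns and 219 and 254 CPM in the A no-ligand columns, against 236 and 267 CPM in the B serotonin columns and 242 and 366 CPM in the B no-ligand columns. A and B overlapped, with B no-ligand column 2 highest. The fitted differences were -0.21 ± 0.31 after serotonin (adjusted p = 0.715) and -0.36 ± 0.31 without ligand (adjusted p = 0.558).

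The split of counts between HSPA1A and HSPA1B is uncertain, because 67.3% of the 100-base stretches of HSPA1A transcripts also occur in HSPA1B. HSPA1A took 11.8% to 13.8% of the summed counts of the pair in the A columns and 56.7% to 73.4% in the B columns. With the pair counted as 1 gene, A was lower by -1.71 on the log2 scale after serotonin (adjusted p = 0.0272) and by -1.40 without ligand (adjusted p = 0.0779), so the call without ligand was lost.

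**Figure D2:**
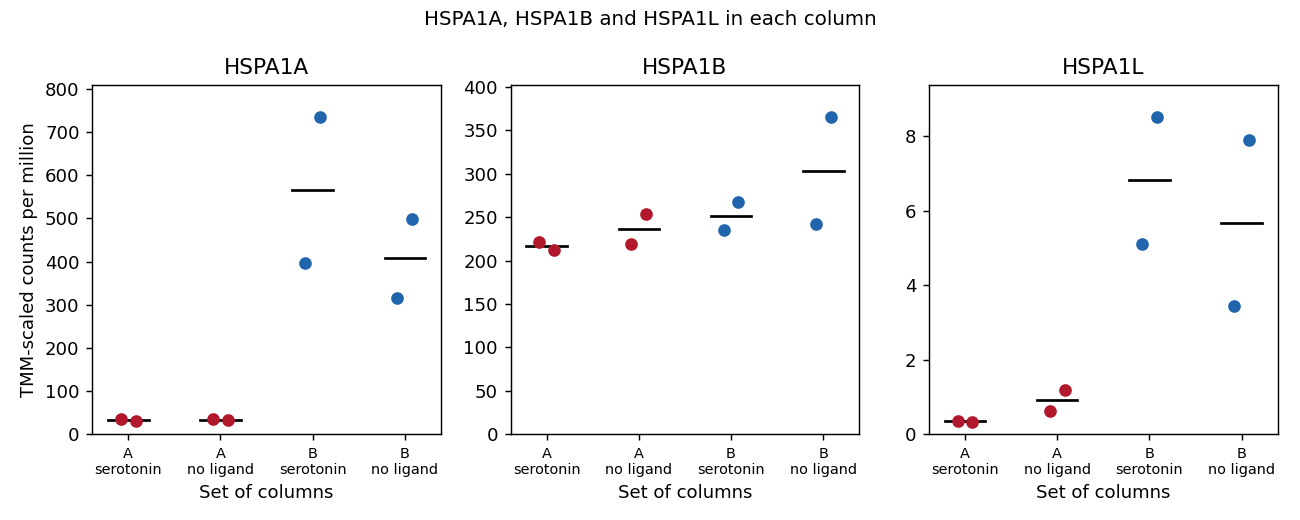
CPM of HSPA1A, HSPA1B and HSPA1L by set; points are columns and lines are means of the 2 columns. HSPA1A and HSPA1L are low in both A sets, while HSPA1B overlaps between A and B.

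Of the genes tested within 50000 bases of HSPA1A on chromosome 6, looked at after its values were seen, 1 other was called. HSPA1L, a testis HSP70 read from the opposite strand (31809619 to 31815065), had 3 and 2 counts in the A serotonin columns and 6 and 12 counts in the A no-ligand columns, against 42 and 51 counts in the B serotonin columns and 6 and 72 counts in the B no-ligand columns. In CPM, every B column (3.44 to 8.52) was above every A column (0.333 to 1.18). HSPA1L was lower in A after serotonin (-4.19 ± 0.68, adjusted p = 0.00839) and without ligand (-2.74 ± 0.58, adjusted p = 0.0336). LSM2, VARS1, VWA7, SAPCD1-AS1, SNHG32, NEU1 and SLC44A4 did not pass.

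Counted over all heat shock genes without ligand, edgeR called 1 higher in A (HSPB1) and 2 lower (HSPA1A, HSPA4L), where 1.52% of all genes tested were called higher and 0.904% lower. No ER gene was called by edgeR without ligand, where 6 of 18 were below 0.05 unadjusted, beside 19.2% of all genes. After serotonin, 2 members were called higher in A (EDEM1, SEL1L) and 2 lower (HSPA1A, HSF1), where 2.33% of all genes were called higher and 2.92% lower. DESeq2 called these genes too. It added MANF higher and HSPH1 lower without ligand, for 5 of 35 members beside 4.66% of all genes, and MANF and HSPA8 higher after serotonin, for 6 of 35 beside 9.57%.

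HSPB1, the small heat shock protein HSP27, was higher in A. It had 81.6 and 61.1 CPM in the A serotonin columns and 59.8 and 82.3 CPM in the A no-ligand columns, against 26.04 and 41.6 CPM in the B serotonin columns and 10.9 and 24.8 CPM in the B no-ligand columns. The letters did not overlap. The difference was 1.90 ± 0.39 without ligand (adjusted p = 0.0308), and 1.08 ± 0.37 after serotonin (adjusted p = 0.109), which did not pass. The call was lost without A no-ligand column 1 (2.14, adjusted p = 0.109), A no-ligand column 2 (1.67, adjusted p = 0.286), B serotonin column 1 (1.86, adjusted p = 0.0511) or B serotonin column 2 (1.91, adjusted p = 0.0534). Without B no-ligand column 1 the difference was 1.47, and without B no-ligand column 2 it was 2.75, both called.

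HSPA4L had 24.9 and 33.3 CPM in the A serotonin columns and 22.7 and 28.5 CPM in the A no-ligand columns, against 37.7 and 35.7 CPM in the B serotonin columns and 72.3 and 55.4 CPM in the B no-ligand columns. All A columns were below all B columns, and the gap was wider without ligand. A was lower by -1.31 ± 0.28 without ligand (adjusted p = 0.0338), while the difference after serotonin was -0.34 ± 0.27 (adjusted p = 0.476). The call was kept only without B no-ligand column 1 or B no-ligand column 2 and was lost without any of the other 6 columns (-1.47 to -1.13, adjusted p 0.0536 to 0.418).

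HSF1, the transcription factor of the heat shock response, had 77.8 and 51.9 CPM in the A serotonin columns and 60.8 and 65.8 CPM in the A no-ligand columns, against 137 and 242 CPM in the B serotonin columns and 95.3 and 110 CPM in the B no-ligand columns. Every A column was below every B column, and B serotonin column 2 was the highest. A was lower by -1.54 ± 0.34 after serotonin (adjusted p = 0.0289), and the difference without ligand was -0.70 ± 0.34 (adjusted p = 0.289). Without B serotonin column 2 the value was -1.08 (adjusted p = 0.294), and the call was also lost without any A column (-1.88 to -1.27, adjusted p 0.0780 to 0.338).

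HSPH1, the HSP110 partner of HSP70, had 38.9 and 42.8 CPM in the A serotonin columns and 44.9 and 43.6 CPM in the A no-ligand columns, against 55.6 and 43.9 CPM in the B serotonin columns and 88.4 and 91.4 CPM in the B no-ligand columns. The B columns without ligand were about the same and above all others. The difference without ligand was -1.02 ± 0.26 and missed the threshold in edgeR (adjusted p = 0.0629), though not in DESeq2, and after serotonin it was -0.29 ± 0.25 (adjusted p = 0.517). DNAJB1, the J protein that feeds HSP70, had 107 and 83.7 CPM in the A serotonin columns and 116 and 120 CPM in the A no-ligand columns, against 78.2 and 89.3 CPM in the B serotonin columns and 74.6 and 129 CPM in the B no-ligand columns. Its letters overlapped, at 0.19 ± 0.31 after serotonin (adjusted p = 0.748) and 0.20 ± 0.31 without ligand (adjusted p = 0.761).

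The other 10 heat shock genes were not called by edgeR in either comparison of the letters, and DESeq2 called 1 of them, HSPA8, after serotonin. They include the constitutive HSP70 HSPA8, the HSP90 genes HSP90AA1 and HSP90AB1, the mitochondrial pair HSPD1 and HSPE1, the exchange factors HSPA4 and BAG3, and the J proteins DNAJA1, DNAJB4 and DNAJB6. Their differences ran from -1.25 (HSPE1) to 1.21 (HSPA8) after serotonin and from -0.70 (DNAJB6) to 0.19 (HSP90AA1) without ligand. HSPE1 was at 5.74 CPM in B no-ligand column 1, against 43.3 to 73.6 CPM in the other B columns. The median of all 17 heat shock genes was -0.21 after serotonin and -0.13 without ligand, beside 0.02 and 0.03 over all genes, and 7 of the 17 were above 0 in each.

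**Figure D3:**
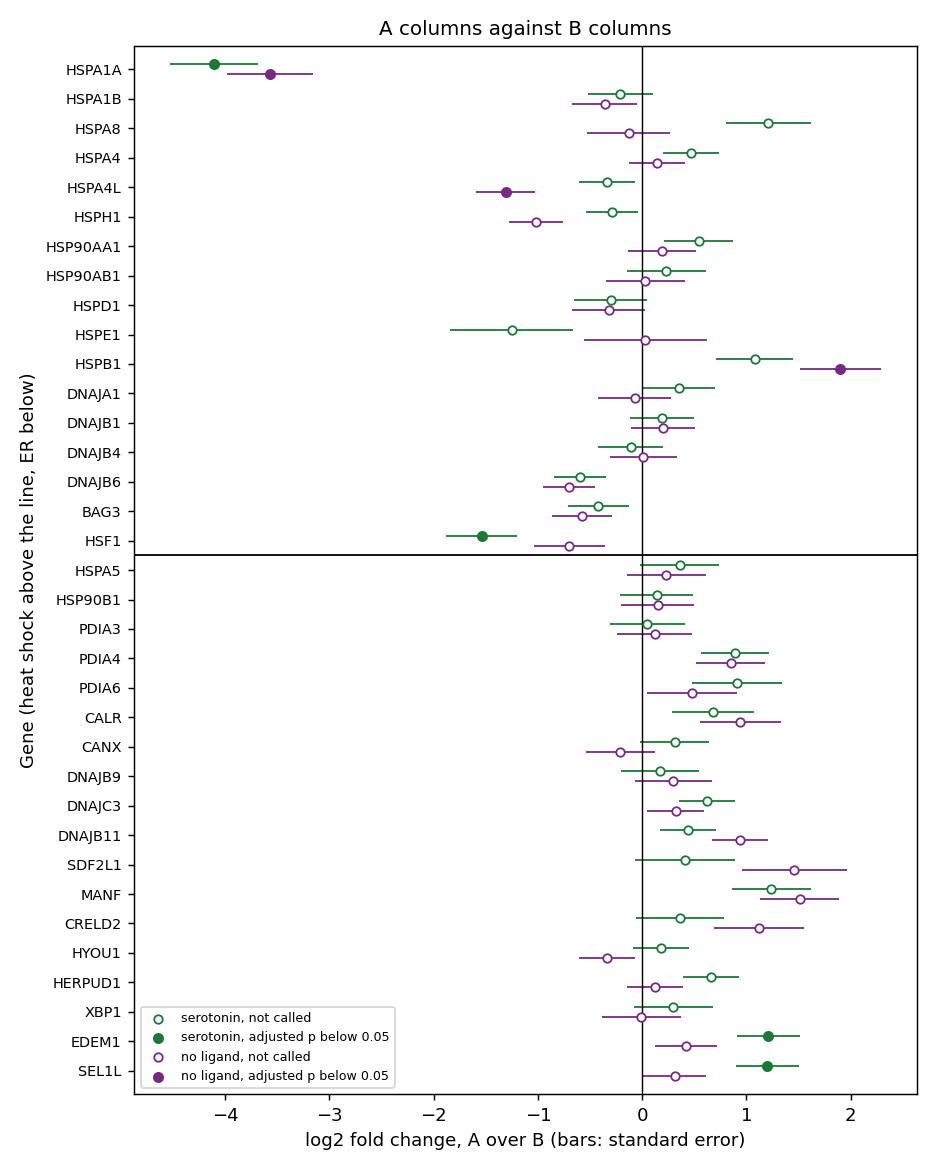
Log2 fold change of A over B for each gene, after serotonin (green) and without ligand (purple); bars are standard errors, and filled points have an adjusted p below 0.05. HSPA1A lies near -4 in both, and ER genes lie mostly right of 0.

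In the ER group, EDEM1 and SEL1L were called higher in A after serotonin. Both serve ER-associated degradation, EDEM1 by trimming mannose from misfolded glycoproteins and SEL1L as the partner of the ubiquitin ligase. EDEM1 had 58.6 and 67.9 CPM in the A serotonin columns and 55.1 and 64.0 CPM in the A no-ligand columns, against 32.4 and 22.2 CPM in the B serotonin columns and 35.02 and 52.5 CPM in the B no-ligand columns. The letters did not overlap. The difference was 1.21 ± 0.30 after serotonin (adjusted p = 0.0434) and 0.42 ± 0.30 without ligand (adjusted p = 0.464).

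SEL1L had 58.6 and 90.8 CPM in the A serotonin columns and 74.5 and 84.2 CPM in the A no-ligand columns, against 37.8 and 26.9 CPM in the B serotonin columns and 67.2 and 61.1 CPM in the B no-ligand columns. Here A serotonin column 1 lay within the range of the B columns. The difference was 1.20 ± 0.30 after serotonin (adjusted p = 0.0463) and 0.31 ± 0.30 without ligand (adjusted p = 0.606). The call of EDEM1 was lost without B serotonin column 2 (0.96, adjusted p = 0.389) or any A column (1.11 to 1.30, adjusted p 0.110 to 0.318). That of SEL1L was lost without B serotonin column 1 (1.45, adjusted p = 0.0547), B serotonin column 2 (0.97, adjusted p = 0.385) or any A column (0.86 to 1.48, adjusted p 0.0910 to 0.415).

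HSPA5, the ER HSP70, had 391 and 384 CPM in the A serotonin columns and 415 and 482 CPM in the A no-ligand columns, against 390 and 213 CPM in the B serotonin columns and 292 and 472 CPM in the B no-ligand columns. The low values were those of B serotonin column 2 and B no-ligand column 1, and the other 2 B columns lay in the range of A. The difference was 0.36 ± 0.38 after serotonin (adjusted p = 0.591) and 0.23 ± 0.38 without ligand (adjusted p = 0.773).

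HSP90B1 had 859 and 790 CPM in the A serotonin columns and 935 and 1011 CPM in the A no-ligand columns, against 839 and 656 CPM in the B serotonin columns and 702 and 1052 CPM in the B no-ligand columns. It overlapped between letters, with differences of 0.14 ± 0.35 after serotonin (adjusted p = 0.837) and 0.15 ± 0.35 without ligand (adjusted p = 0.848). XBP1, whose spliced form drives ER stress genes, had 89.0 and 64.4 CPM in the A serotonin columns and 98.1 and 74.5 CPM in the A no-ligand columns, against 82.98 and 41.1 CPM in the B serotonin columns and 66.0 and 106 CPM in the B no-ligand columns. Counts per gene do not separate its spliced form. It differed by 0.30 ± 0.38 after serotonin (adjusted p = 0.656) and -0.01 ± 0.38 without ligand (adjusted p = 0.989).

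DNAJB9, a J protein of the ER that works with HSPA5, had 15.5 and 15.5 CPM in the A serotonin columns and 22.3 and 17.7 CPM in the A no-ligand columns, against 18.9 and 8.52 CPM in the B serotonin columns and 12.6 and 18.7 CPM in the B no-ligand columns. HERPUD1, a membrane protein of ER-associated degradation, had 36.0 and 28.6 CPM in the A serotonin columns and 41.9 and 30.1 CPM in the A no-ligand columns, against 21.7 and 19.4 CPM in the B serotonin columns and 31.0 and 34.9 CPM in the B no-ligand columns. Both overlapped between the letters. DNAJB9 differed by 0.17 ± 0.37 after serotonin (adjusted p = 0.813) and 0.30 ± 0.37 without ligand (adjusted p = 0.691), and HERPUD1 by 0.66 ± 0.27 after serotonin (adjusted p = 0.167) and 0.12 ± 0.27 without ligand (adjusted p = 0.841).

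The other 11 ER genes did not pass in edgeR either. MANF, a secreted ER stress protein, came nearest, at 1.24 ± 0.38 after serotonin (adjusted p = 0.0798) and 1.51 ± 0.38 without ligand (adjusted p = 0.0677), and DESeq2 called it in both. It had 112 to 158 CPM in the A columns and 28.7 to 71.7 CPM in the B columns, with no overlap. The calcium-binding lectin CALR had 992 to 1337 CPM in A and 468 to 831 CPM in B, and the disulfide isomerase PDIA4 had 282 to 361 CPM in A and 122 to 217 CPM in B, again with no overlap. The J protein DNAJB11 had 62.2 to 76.7 CPM in A and 29.3 to 47.1 CPM in B, and the stress-induced CRELD2 had 111 to 149 CPM in A and 30.4 to 101 CPM in B. PDIA3, PDIA6, CANX, DNAJC3, SDF2L1 and HYOU1 overlapped.

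All 4 A columns were above all 4 B columns for 7 members (HSPB1, PDIA4, CALR, DNAJB11, MANF, CRELD2, EDEM1), beside 9.96% of all genes tested. All 4 B columns were above all 4 A columns for 5 members (HSPA1A, HSPA4L, DNAJB6, BAG3, HSF1), beside 7.62% of all genes. With CPM not scaled by TMM the counts were 10 and 1 members, beside 18.2% and 2.07% of all genes, so this balance depends on the scaling for members and all genes alike. Without B no-ligand column 1 and B serotonin column 2 they were 7 and 9, beside 19.1% and 19.0% of all genes.

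The median of the 18 ER genes was 0.43 after serotonin, with 18 of 18 above 0, and 0.31 without ligand, with 15 of 18 above 0, beside 0.02 and 0.03 over all genes. Without B no-ligand column 1 and B serotonin column 2 these were 0.37 with 13 of 18 and 0.12 with 12 of 18. The ER level was lowest in the 2 B columns that stood apart, though not in the order of their mitochondrial shares (36.3% and 54.37%). The median log2 deviation of the ER genes was -0.74 in B serotonin column 2 and -0.40 in B no-ligand column 1, where mitochondrial counts were highest, and -0.21 to 0.28 in the other 6 columns. The part of these library differences in the ER values was not tested. The median deviation of the heat shock genes was 0.49 in B no-ligand column 2 and -0.17 to 0.11 elsewhere.

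**Figure D4:**
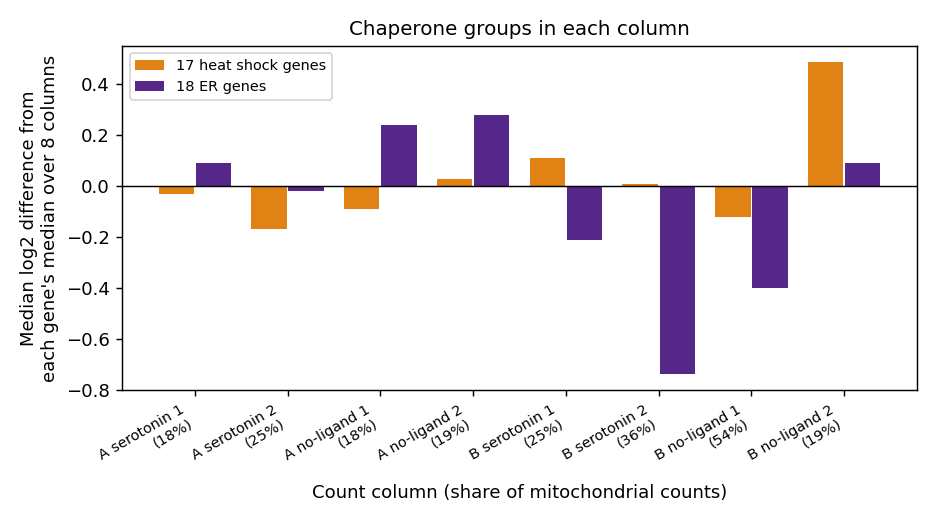
Median log2 difference from each gene's median over the 8 columns, for the 17 heat shock genes (orange) and the 18 ER genes (purple), with the share of mitochondrial counts under each column name. The ER bars are lowest in B serotonin column 2 (-0.74) and B no-ligand column 1 (-0.40).

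Without those 2 libraries, with 1 B column per treatment assumed to vary like the A columns, 8 of 35 members were called after serotonin, beside 10.1% of all genes, and 8 without ligand, beside 8.42%. HSPA1A (-3.60 and -3.87), HSF1 (-1.08 and -0.80), HSPB1 (1.45 and 1.5) and MANF (1.05 and 1.02) were called in both. After serotonin, HSPA8 (1.03), EDEM1 (0.96), SEL1L (0.97) and HSPE1 (-0.87) were called as well, and without ligand HSPA4L (-1.13), HSPH1 (-1.06), DNAJB6 (-0.83) and SDF2L1 (0.86).

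No member passed the test for serotonin in the A columns. edgeR and DESeq2 each called 0 of 35, and 0 were below 0.05 unadjusted. Over all genes tested, 0% were called higher and 0% lower, with 62 genes below 0.05 unadjusted. Differences of members ran from -0.37 (DNAJB9) to 0.18 (HSPA4L), with a median of -0.15 beside -0.02 over all genes and 31 of 35 below 0. Their median standard error was 0.34, and differences of that size were not detectable in this fit. The fit estimated the spread over all 4 sets, with the 2 B columns that stood apart, and not from the A columns alone. With only the 4 A columns fitted, edgeR also called 0 of 35 members, beside 0% of all genes.

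In the B columns edgeR also called no member, with 0.0117% of all genes called higher and 0% lower. Unadjusted, 8 of 35 members (22.9%) were below 0.05, beside 26.5% of all genes. DESeq2 called 1 member (HSPA8), beside 9.68% of all genes. The lowest adjusted p belonged to HSPA8, at 201 and 157 CPM in the B serotonin columns against 477 and 536 CPM in the B no-ligand columns (-1.5 ± 0.41, adjusted p = 0.0784). HSPH1 (-0.85 ± 0.26, adjusted p = 0.0900) and SEL1L (-0.98 ± 0.31, adjusted p = 0.0955) followed. In each the serotonin columns were below the no-ligand columns. HSPA8 also varied within A, from 287 to 599 CPM, with the trailing-R columns the higher ones. The median was -0.30, beside 0.01 over all genes.

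The difference between the responses, A minus B, was called for no member by edgeR or DESeq2. Of all genes, edgeR called 0% higher and 0% lower, and DESeq2 called 0.493%. Unadjusted, 2 of 35 members (5.71%) were below 0.05, beside 15.0% of all genes. Member values ran from -1.29 (HSPE1) to 1.33 (HSPA8), with a median of 0.13 beside -0.04. For the genes called between the letters under 1 treatment only, this difference was -0.82 for HSPB1 (adjusted p = 0.452), 0.97 for HSPA4L (adjusted p = 0.309), -0.85 for HSF1 (adjusted p = 0.395), 0.79 for EDEM1 (adjusted p = 0.378) and 0.89 for SEL1L (adjusted p = 0.344), so their A against B values were not shown to differ between treatments. Over all columns with the letter as a term, serotonin gave no call by edgeR or DESeq2 either, with 0% of all genes higher and 0% lower. There 2 members (HSPA8 at -0.83 ± 0.36 and HSPH1 at -0.48 ± 0.21, both adjusted p = 0.732) were below 0.05 unadjusted, beside 3.73% of all genes, and the median was -0.25 beside 0. These comparisons share columns. When B no-ligand column 2 was left out, edgeR called 8 of 35 members for serotonin in B, beside 26.3% of all genes, and 5 for the difference of responses, beside 18.9%. Leaving out B no-ligand column 1 gave 1 member in B, beside 1.41%.

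**Figure D5:**
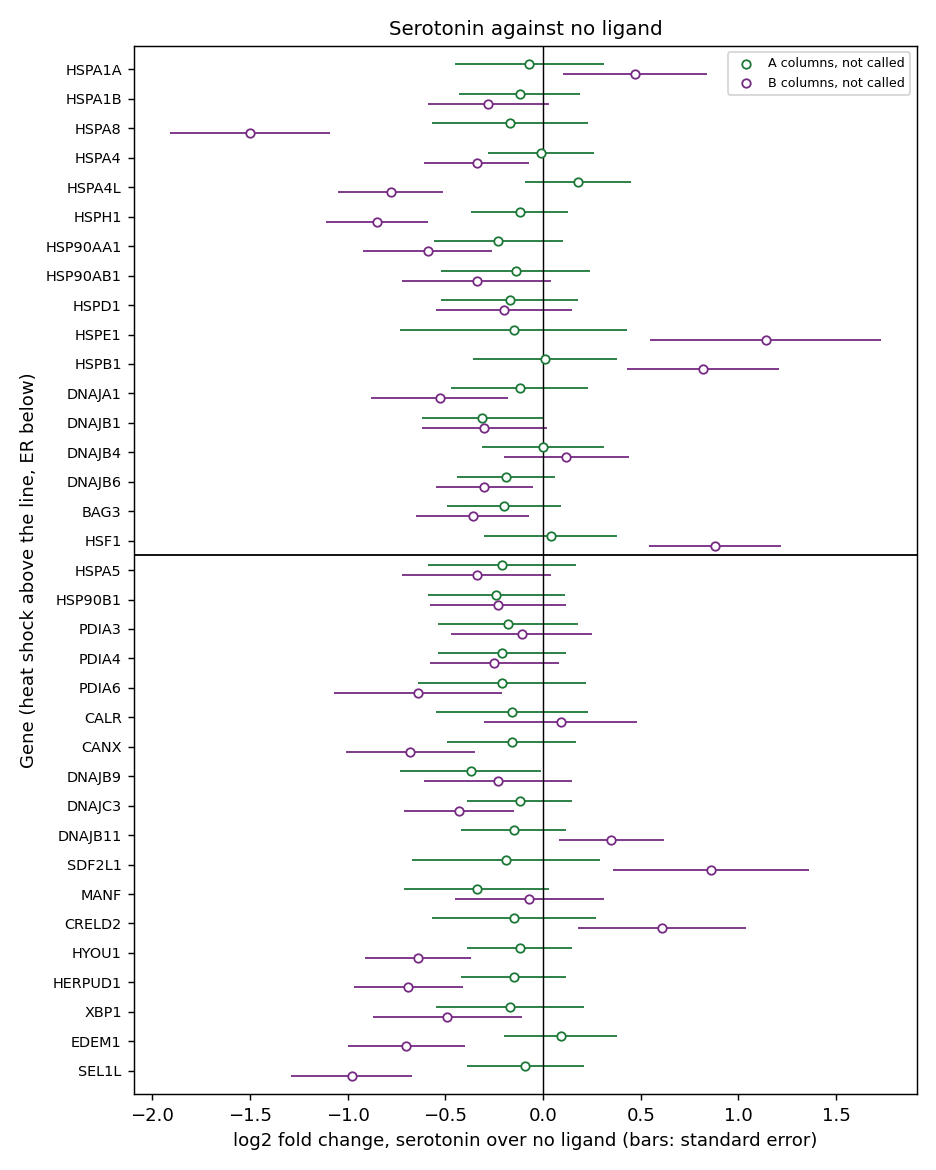
Log2 fold change of serotonin over no ligand for each gene in the A columns and in the B columns; bars are standard errors, and no point has an adjusted p below 0.05. Values in A lie between -0.37 and 0.18, those in B between -1.5 and 1.14.

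Other genes of the same pathways, also listed with earlier results of these data known, were counted in the same way. Of 40 further heat shock and cytosolic folding genes, 39 symbols were matched and 37 were tested. None was called in any comparison by edgeR. Unadjusted, 2 of the 37 were below 0.05 between the letters after serotonin, beside 24.3% of all genes, and 2 without ligand, beside 19.2%. There were 4 for serotonin in B, beside 26.5%, and 2 for the difference of responses, beside 15.0%. DESeq2 called CDC37, an HSP90 cochaperone for kinases, lower in A after serotonin and higher with serotonin in B. That was 1 of 39 in each comparison, beside 9.57% and 9.68% of all genes. Of 38 further ER genes, all tested, SIL1, the exchange factor of HSPA5, was higher in A without ligand (1.51 ± 0.31, adjusted p = 0.0295). PPP1R15A, which restores translation after ER stress, was lower in A after serotonin (-1.57 ± 0.29, adjusted p = 0.0135), and TXNDC5, a disulfide isomerase, was higher (1.81 ± 0.38, adjusted p = 0.0240). DESeq2 called these 3 as well, and after serotonin also ERN1, ATF4 and MBTPS2, for 3 higher and 2 lower in A. Without ligand edgeR thus called 1 of the 38, beside 2.42% of all genes, and DESeq2 1, beside 4.66%. After serotonin edgeR called 2, beside 5.25%, and DESeq2 5, beside 9.57%. For serotonin in B, edgeR called none of the 38, with 11 below 0.05 unadjusted, beside 26.5% of all genes. DESeq2 called EDEM3, UGGT1 and TXNDC5 lower there, beside 9.68% of all genes called. PPP1R15A had 52.5 and 46.8 CPM in the A serotonin columns against 128 and 168 CPM in the B serotonin columns. TXNDC5 had 12.6 and 17.3 CPM in the A serotonin columns against 5.47 and 2.84 CPM in the B serotonin columns. The medians of the 38 ER genes between the letters were 0.39 after serotonin and 0.34 without ligand, and those of the 37 heat shock genes -0.10 and -0.14.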

How the data were processed

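The authors deposited raw counts of read pairs per gene for 8 columns. Per the file headers, featureCounts 2.0.1 counted reverse-stranded pairs on GENCODE 28, and duplicates were marked but not dropped. The submitters' processing notes name cutadapt 3.4, STAR 2.7.8a, SAMtools 1.12 and hg38. Columns were placed by treatment word, and the letters A and B were compared as named.

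edgeR 4.0.16 (R 4.3.3; TMM, filterByExpr, 4 sets, 4 residual degrees of freedom, quasi-likelihood test, Benjamini-Hochberg over all genes tested, threshold 0.05) was the main test, and DESeq2 1.42.0 the alternative. The standard error is the log2 fold change over the square root of F. The script was tested on simulated data. Depth was 2604885 to 9072278 pairs, and counts of a gene carry counting error on top of the spread between columns.

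Full values were given for members called and for 10 listed genes, and other genes were named only if called; HSPA1L, the neighbours and the printed promoters were chosen after values were seen. The members and lists were chosen with earlier results of these data known. Whether the trailing letter pairs columns was checked by the correlation of deviations from set means across genes: 0 and 0.15 between treatments in A and B, and -0.29 and 0.09 between letters with and without serotonin, so it was not taken to pair them.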

Additional observations from a re-analysis of the deposited data

Results flagged for a closer look

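A column far from the other columns of its treatment, by Dixon's gap over range for 4 columns, was found in 4 of 36 groups of values. Chance gives about 1 in 20 for independent groups drawn from 1 population. The groups here reuse the same columns and pool A with B, so that rate does not apply to them. All flags but that of HSPA5 fell on B no-ligand column 1. HSPA5 was at 213 CPM in B serotonin column 2, against 384 to 391 CPM in the other serotonin columns. In units of 1000000 counted read pairs, B no-ligand column 1 had 2.60, against 8.15 to 9.07 in the other columns without ligand. Its share of mitochondrial counts was 54.37%, against 17.92% to 18.91%. Mitochondrial ribosomal RNA alone took 43.91% of its counts, against 7.37% to 8.09%. These A and B columns are pooled by treatment, the label that the column names match.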

How the results depend on the processing

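With DESeq2, calls between A and B without ligand were 759 of all genes (4.66%) and 5 members, against 415 (2.42%) and 3 with edgeR. After serotonin DESeq2 called 1426 of all genes (9.57%), against 900 (5.25%). DESeq2 gave 1443 (9.68%) for serotonin in B, with 1 member, against 2 and 0, and 70 for the difference of responses, against 0. With no filter on low counts, 35617 genes were tested. Calls among all genes and members were then 1117 (3.14%) and 5 without ligand, and 1985 (5.57%) and 8 after serotonin (4 in the reported test). For serotonin in B they were 1830 (5.14%) and 2, with 570 for the difference of responses and 43 for serotonin over all columns. With only the 4 columns compared, all genes and members called were 15 (0.0924%) and 0, 2312 (14.3%) and 8, and 9 for serotonin in B. Without B no-ligand column 1 and B serotonin column 2, an alternative chosen after the data were seen, they were 1542 and 8, 1850 and 8, 84 for serotonin in B and 7 for the difference. Dropping mitochondrial genes, also chosen then, left the member counts at 3 and 4, beside 2.43% and 5.18% of all genes.

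With a replicate block on the trailing letter, calls between A and B were 268 (1.56% of all genes) without ligand. After serotonin they were 480 (2.8%) with 1 member. A replicate block on the rest of the name gave 2218 (12.9%) with 3 members (HSPE1, HSPA8, SEL1L) for serotonin in B and 250 (1.46%) for the difference. The labels do not say that the letter pairs columns, and HSPA4L, HSF1, EDEM1 and SEL1L missed the threshold under it (adjusted p 0.0702, 0.0593, 0.0844 and 0.0904).

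Leaving out 1 column at a time gave 60 to 3693 genes and 1 to 12 members between A and B without ligand, and 83 to 3347 genes and 1 to 10 members after serotonin. It gave 0 to 4846 genes and 0 to 8 members for serotonin in B, and 0 to 3482 genes and 0 to 5 members for the difference. For serotonin in A and over all columns it gave 0 to 0. Without B no-ligand column 2 the median of all genes moved to 0.17 between A and B without ligand, to 0.15 for serotonin in B and to -0.18 for the difference. The highest counts came without B no-ligand column 2, and the 10 members also without B no-ligand column 1. The cause was not tested. Each of these fits leaves 1 column in 1 set, and the number of genes tested differs between them. Counts of members are therefore to be read only beside those of all genes. A change of sign where neither value was called is not counted as a reversal. For single genes against an alternative, 975 values kept their side of the threshold, 34 no longer passed it and 7 newly passed. Most of the 975 belong to genes not called in the reported test, which could not lose a call. Of the 8 fits without 1 column, HSPA1A was called in all 8 under both treatments. Without ligand HSPB1 was called in 4 and HSPA4L in 2. After serotonin HSF1 and EDEM1 were called in 3 each and SEL1L in 2. Depth limits B no-ligand column 1 most.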
